A study of Mus musculus with 30 samples.

Results

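Gene expression after 48 h of retinoic acid was compared with that after 36 h in KH2 mouse embryonic stem cells, using the 6 arrays titled 48hr-A, B and C and 36hr-A, B and C out of the 30 in the series. RNA of the course, which has 8 times, was hybridised to Affymetrix mouse genome arrays, 1 array a sample, and both groups carry the same labels except for the time: cell line KH2, treatment retinoic acid, 36 hours or 48 hours. No untreated culture of the same age is part of the comparison, so time in culture and time in retinoic acid cannot be told apart. Per the labels' protocols the medium held 0.3 uM of the compound and the cultures stood on feeders, and the trypsinised cells spent 30 minutes on gelatin before lysis. The treatment protocol puts the cells of the drawn-off medium into Trizol and the extract protocol those that had stuck to the plate, so it is not settled how far feeders were removed. Nothing in the labels says that arrays of a group came from separate cultures. The p-values below measure only the spread between arrays within groups, taken over all 30 arrays of the series.

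Retinoic acid acts through nuclear receptors and turns on Hox genes and other factors of the hindbrain and spinal cord. In the embryo the hindbrain is divided into rhombomeres, and the factors that set up this pattern, such as Egr2 and Hoxb1, are active for a short time before the neurons form. Feeder layers are embryonic fibroblasts, whose RNA is rich in fibrillar collagens, their cross-linking enzymes and contractile proteins, but differentiating cells of mesoderm, neural crest or endoderm can make the same transcripts.

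Values are log2 intensities as normalised by the authors, and a change is the mean at 48 h minus the mean at 36 h (3 arrays each). The standard error printed after it comes from the limma fit. It draws on the spread within groups of all 30 arrays, not of these 6 alone. Genes were tested with limma over 18193 genes, with 1 probe set a gene, and those with a Benjamini-Hochberg adjusted p below 0.05 were called. At 48 h, 1380 genes were called higher (7.59%) and 2635 lower (14.5%), while the median change of all genes was -0.02. Of the called genes 34.4% were higher, and this share was 47.4% when each array was centred on its median, which moved the median change to 0.02. By at least 1 log2, 185 genes rose and 53 fell, a balance that did not hold when the mean level of 19 fibroblast genes in each array was added to the model as a covariate (54 and 59). In the model the arrays A to C and D to F of 12 h and of 24 h are separate groups, and with these letters pooled into 8 time groups 712 genes were called higher and 1109 lower. With the letter A, B or C as a block 1016 were called higher and 1755 lower. Without array 36 h B the lower calls numbered 1710, and without array 48 h C the rises of at least 1 log2 numbered 115. Array medians lay between 6.36 and 6.38 in all 6 arrays. The 18S ribosomal control probe set read 8.12 to 8.43 at 36 h and 8.47 to 9.13 at 48 h, and the B2 repeat control 14.95 to 15.02 and 15.03 to 15.07. Both controls were higher in every 48 h array, and their part in the results was not tested.

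**Figure D1:**
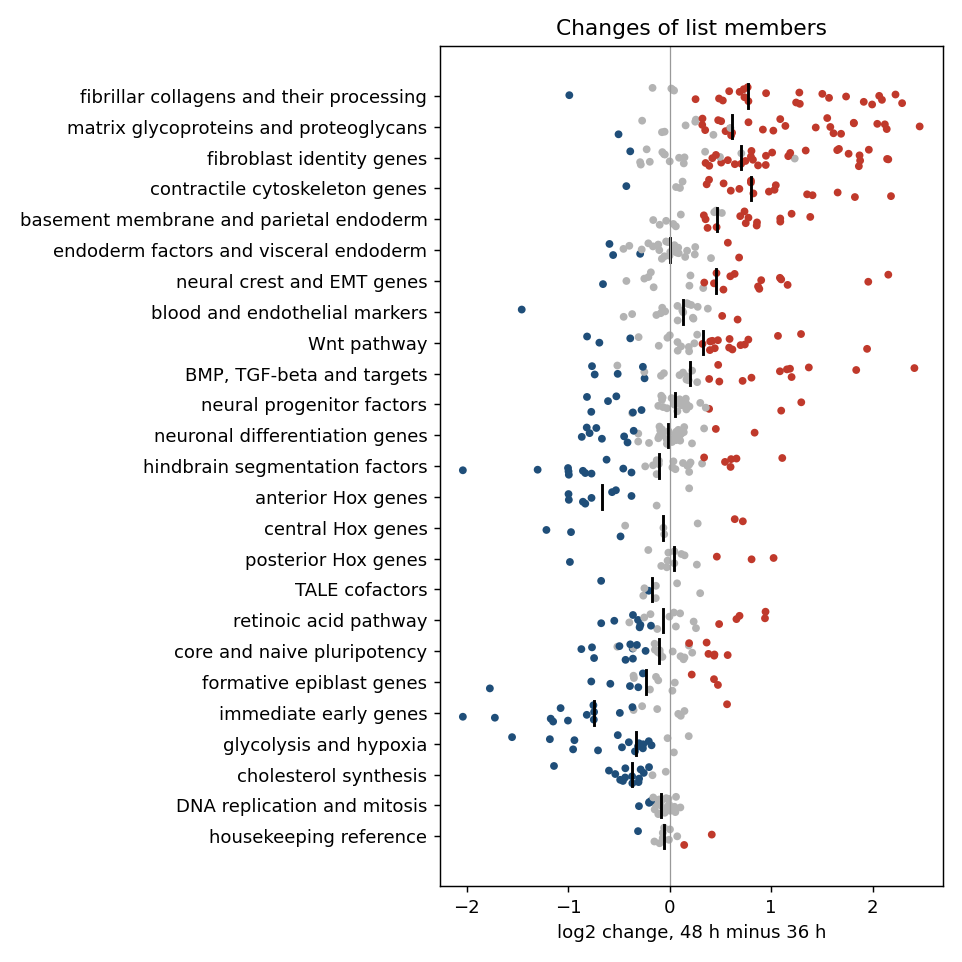
Log2 change from 36 h to 48 h (x axis) of the measured members of 25 gene lists (y axis), 1 point a gene. Red points were called higher, blue points lower and grey points neither, and the black bar is the list's median. The collagen, matrix, fibroblast and contractile lists lie to the right of 0, and the anterior Hox, immediate early, glycolysis and cholesterol lists to the left.

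Many transcripts of the extracellular matrix and of fibroblasts rose at 48 h, and they made up 39 of the 185 genes that rose by at least 1 log2. Of 27 measured fibrillar collagens and collagen-processing enzymes 22 rose and 1 fell, with a median change of 0.78. Of 34 matrix glycoproteins and proteoglycans 25 rose and 1 fell (median 0.61), and of 44 fibroblast identity genes 28 rose and 1 fell (median 0.71). Some genes belong to more than 1 of these lists, which hold 105 measured genes in all, with 75 higher, 3 lower and a median of 0.74. Without array 48 h C, 16 of the 34 glycoproteins and 15 of the 44 identity genes were called higher. In bulk RNA, more cells of a type and more RNA per cell cannot be told apart, and neither can a transcript of the feeders and the same transcript of a differentiating cell.

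Among the collagens, Col3a1, a fibrillar collagen of soft tissues, read 10.30, 10.62 and 11.37 in arrays A, B and C at 36 h and 12.94, 12.50 and 13.72 at 48 h. The groups were well apart, and C was the highest array at both times. The change was 2.29 ± 0.31, a 4.89-fold rise (limma adjusted p = 1.1e-05). Col1a1, the main chain of type I collagen, read 9.01, 10.13 and 10.53 at 36 h and 11.65, 11.07 and 12.93 at 48 h, and rose by 2.00 ± 0.48 (limma adjusted p = 0.0036). Its partner chain Col1a2 rose by 1.28 ± 0.36, but the call was lost without array 36 h A (1.14) or without array 48 h C (0.91). Lox, the enzyme that cross-links collagen, rose by 2.23 ± 0.40, from 8.41, 8.78 and 9.47 to 11.07, 10.45 and 11.82. Col5a2, Col6a1 and Col12a1 rose by 1.91, 1.57 and 2.09. The one member that fell was Col8a2, a short-chain collagen, with 6.37, 7.05 and 7.03 at 36 h and 5.84, 5.96 and 5.70 at 48 h. Its change of -0.99 ± 0.16 ran against that of the fibrillar chains (limma adjusted p = 9e-05).

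Of the matrix glycoproteins, Ogn, the small leucine-rich proteoglycan osteoglycin, had the largest rise of all genes whose groups did not overlap. It read 6.25, 5.60 and 7.11 at 36 h and 8.90, 7.87 and 9.58 at 48 h, a change of 2.46 ± 0.47 or 5.52-fold (limma adjusted p = 0.00043). Ltbp2, which binds microfibrils, rose by 2.14 ± 0.38, tenascin C (Tnc) by 2.05 ± 0.34 and the thrombospondins Thbs1 and Thbs2 by 1.82 ± 0.26 and 1.81 ± 0.22. Postn, periostin, read 8.31, 8.25 and 9.06 at 36 h and 11.11, 9.36 and 11.50 at 48 h. Array 48 h B stood far below its 2 fellows in this gene, and the change of 2.12 ± 0.57 was no longer called without array 48 h C (1.70). Fibronectin (Fn1), which many cell types make, rose by 0.61 ± 0.12. Fbln1, fibulin 1, was the one glycoprotein that fell, by 0.50 ± 0.10 on the log2 scale, a call that was lost with the letters pooled.

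Among the fibroblast identity genes, Cdh11, the cadherin of mesenchyme, read 7.92, 8.24 and 8.84 at 36 h and 10.49, 10.07 and 10.91 at 48 h and rose by 2.15 ± 0.31 (limma adjusted p = 1.9e-05). Fap, a surface protease of activated fibroblasts, rose by 2.14 ± 0.29, Thy1, a surface marker of fibroblasts, by 1.88 ± 0.37 and Prrx1, a homeobox factor of limb and facial mesenchyme, by 1.86 ± 0.31. Twist1 and Pdgfrb, a mesenchymal factor and the receptor for platelet-derived growth factor B, rose by 0.87 ± 0.12 and 0.82 ± 0.12. Not every fibroblast gene moved. Mmp2, the gelatinase, read 10.30, 10.33 and 9.98 at 36 h and 10.41, 10.22 and 10.42 at 48 h, with overlapping groups and a change of 0.15 ± 0.14 (limma adjusted p = 0.53). Lum, lumican, had 7.06 in array 48 h A and between 5.16 and 5.66 in the other 5 arrays (limma adjusted p = 0.24).

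A fibroblast level was computed for each array as the mean log2 value of 19 measured genes that define embryonic fibroblasts, Col1a1, Col3a1, Thy1 and Prrx1 among them. It was 8.33, 8.38 and 8.78 in arrays A, B and C at 36 h and 9.99, 9.40 and 10.43 at 48 h. Every 48 h array was above every 36 h array, the difference of the means was 1.44, and no test was run on it. The level was lower still at 8 h (mean 7.39) and in arrays D to F at 24 h (7.89), and it did not go on rising after 48 h, with 9.01 to 9.76 at 60 h and a mean of 9.83 at 72 h. Of the 19 genes 17 rose and 0 fell, 15 of them with every 48 h array above every 36 h array (12.1% of all genes), and the mean of each lay above the lower quartile of the values. The 3 arrays at 48 h spanned 9.40 to 10.43, more than the 3 at 36 h.

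**Figure D2:**
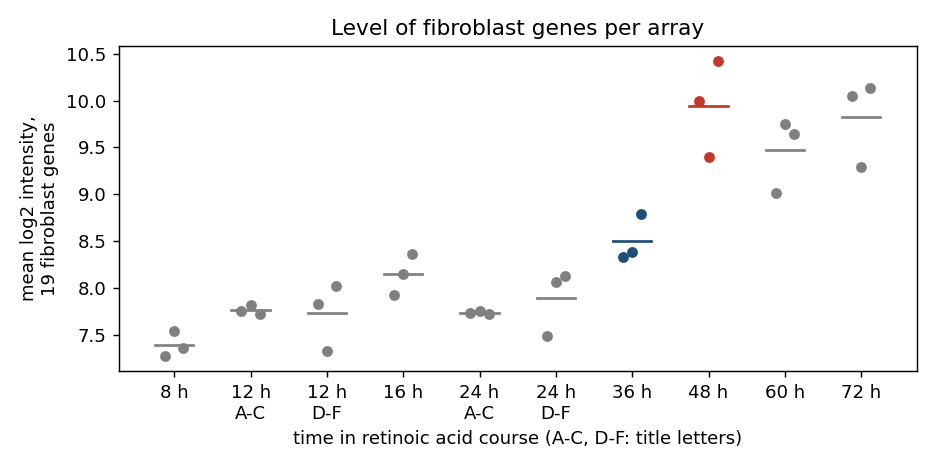
Fibroblast level (mean log2 intensity of 19 fibroblast genes, y axis) in each of the 30 arrays by time (x axis, 12 h and 24 h split by the letters of the titles). Points are arrays and bars are group means, with 36 h in blue and 48 h in red. The 36 h arrays lie at 8.33 to 8.78 and the 48 h arrays at 9.40 to 10.43, and the 60 h and 72 h arrays stay near the level of 48 h.

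The spread of that level within groups gives a way to sort genes that does not use the step from 36 h to 48 h. For each gene a slope was estimated from the deviations of the 30 arrays from their group means, as the log2 change per 1 log2 of fibroblast level. Over the 86 matrix and fibroblast genes that are not among the 19, the median slope was 0.35, against -0.01 over all genes. Array 48 h C, which had the highest fibroblast level, exceeded array 48 h B, which had the lowest, in 70 of these 86 genes, by a median of 0.60. Over 18174 genes the same was true of 7424, with a median of -0.04. The matrix genes thus differed between arrays of 1 time as well as between the times.

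When the fibroblast level was added to the model as a covariate, 242 genes were called higher (1.33%) and 460 lower (2.53%). The largest deviation of an array from its group's level was 0.54, so the model extrapolates this slope to a difference of 1.44, and the standard error of a typical gene grew from 0.09 to 0.14. Over all called genes the share still called was alike in both directions, 206 of the 1380 higher (14.9%) and 417 of the 2635 lower (15.8%). It differed among the large changes. Of the 185 genes that had risen by at least 1 log2, 42 (22.7%) were still called higher, 53 took the opposite sign, and the median change went from 1.29 to 0.34. Of the 53 genes that had fallen by at least 1 log2, 41 (77.4%) were still called lower, 0 changed sign, and the median went from -1.17 to -1.08. In this fit 54 rises and 59 falls reached 1 log2. Of the 105 matrix and fibroblast genes 6 were called higher and 4 lower with the covariate, and their median was -0.05. These 105 include the 19 genes that make up the covariate, whose changes in this fit average 0 by construction. The count and median are thus partly fixed by the model, and are not given for the other 86 alone. The value for a gene among the 19 is partly built from itself. The covariate does not say which cells made a transcript.

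**Figure D3:**
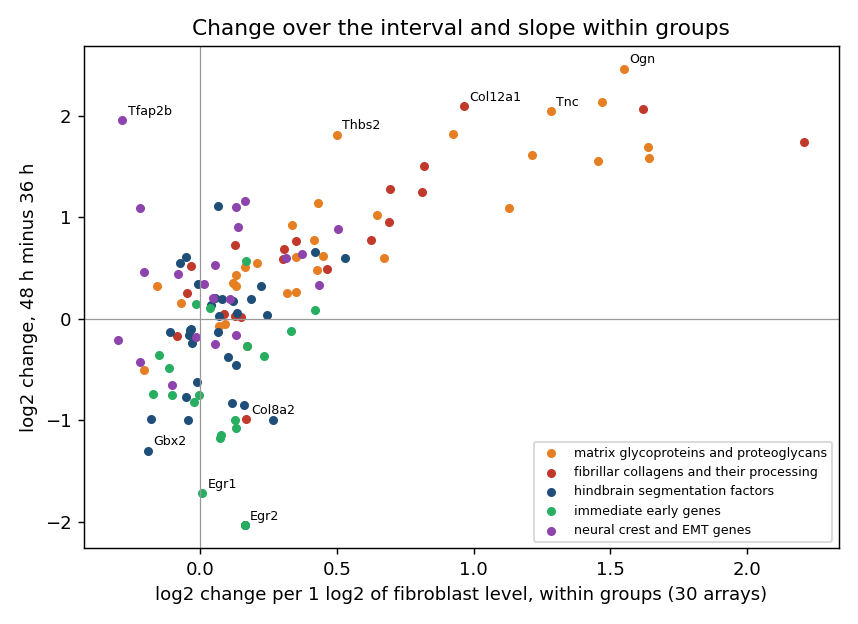
Log2 change from 36 h to 48 h (y axis) against the slope on the fibroblast level within groups (x axis, log2 per 1 log2, 30 arrays), 1 point a gene, for 5 lists without the genes that define the level. Matrix genes such as Ogn and Tnc lie at the upper right, Tfap2b rose with a negative slope, and Egr1, Egr2 and Gbx2 fell with slopes between -0.19 and 0.16.

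Some matrix and mesenchymal genes were still called higher with the covariate. Crispld2, a secreted protein of mesenchyme, read 9.20, 9.54 and 9.36 at 36 h and 11.44, 11.41 and 12.13 at 48 h. Its change of 2.29 ± 0.12 (limma adjusted p = 2e-11) was 1.87 with the covariate, at a slope of 0.29, and its mean went on to 12.83 at 60 h and 13.26 at 72 h. Timp3, an inhibitor of matrix proteases, kept 1.09 of its 1.87, Thbs2 kept 1.09 of 1.81, and Col12a1 kept 0.70 of 2.09, and all 3 were still called. For Ogn, Ltbp2, Prrx1 and Tnc the values left were 0.23, 0.02, 0.11 and 0.20, none of them called. Lox and Col1a1 turned to -0.084 and -0.60, and Postn, the gene with the steepest slope of those named (2.25), turned to -1.13. Prrx1 and Col1a1, for example, are among the genes that define the level, so their values here are partly fixed by the model.

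Contractile genes rose alongside. Of 20 measured members 16 rose and 1 fell, with a median of 0.80, and 7 of the 20 were higher at 48 h than in every array at both 36 h and 60 h, against 3.47% of all genes. Acta2, smooth muscle actin, read 11.26, 12.19 and 12.92 at 36 h and 13.94, 13.56 and 14.35 at 48 h, and rose by 1.83 ± 0.40 (limma adjusted p = 0.0018). Actg2, the enteric smooth muscle actin, rose by 2.18 ± 0.50 and Myl9, a myosin regulatory light chain, by 1.66 ± 0.24. These 3 were not called with the covariate (0.11, -0.32 and 0.58). Cnn1, calponin, was steadier between arrays, with 8.22, 8.55 and 8.77 at 36 h and 9.79, 9.83 and 9.99 at 48 h. It rose by 1.35 ± 0.12 and kept 1.01 with the covariate (limma adjusted p = 0.0014), while Tagln, transgelin, kept 0.68 of 1.41. With the covariate 6 of the 20 were called higher and 0 lower.

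Of 23 measured neural crest and epithelial-to-mesenchymal transition genes 14 rose and 1 fell, with a median of 0.46, and with the covariate 3 were called higher and 0 lower, with a median of 0.22. In the 21 of them outside the 19 fibroblast genes the median slope was 0.05, and array 48 h C was above array 48 h B in 7 (33.3%, against 40.9% of all genes), with a median difference of -0.21. Tfap2b, a transcription factor of crest and its derivatives, read 4.38, 4.29 and 4.36 at 36 h and 6.65, 6.37 and 5.88 at 48 h. Its 36 h values lay below 4.78, the lower quartile of all values, where a level is close to the floor of the array. The change was 1.96 ± 0.31 (limma adjusted p = 6.8e-05), and it was 2.37 with the covariate. Msx2, a target of bone morphogenetic proteins, read 8.15, 8.04 and 8.01 at 36 h and 9.03, 9.48 and 8.94 at 48 h and rose by 1.09 ± 0.12, with 1.41 left under the covariate. Pax3 and Sox9 rose by 1.10 ± 0.17 and 1.16 ± 0.17, and with the covariate their changes of 0.91 and 0.93 had adjusted p of 0.068 and 0.06. Epha3, an ephrin receptor, went from 3.26, 3.24 and 3.86 to 5.42, 5.94 and 5.72, out of the range near the floor, and reached a mean of 8.36 at 60 h and 9.08 at 72 h. The groups did not overlap in any of these 5 genes.

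**Figure D4:**
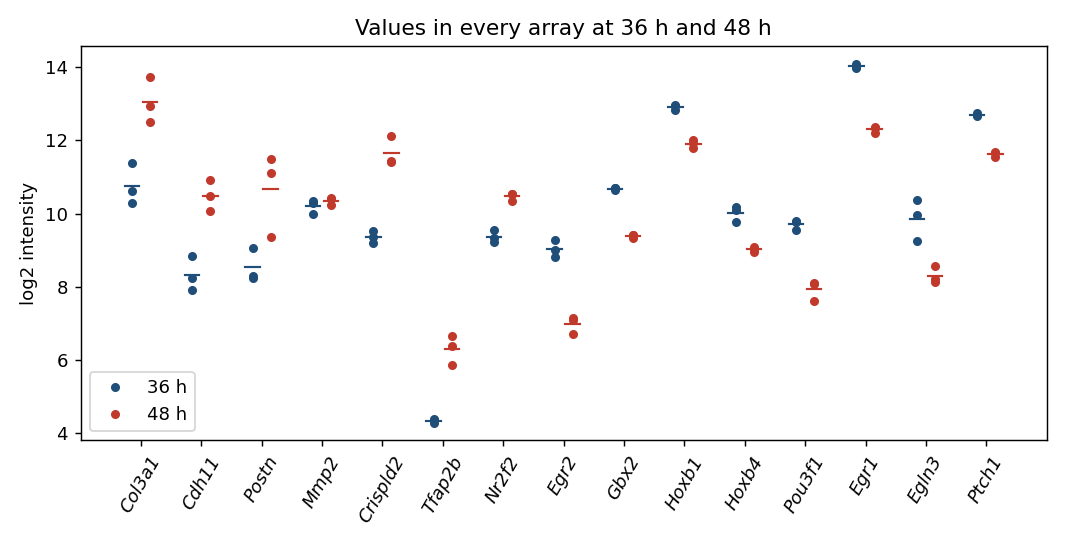
Log2 intensity (y axis) of 15 genes (x axis) in each array at 36 h (blue) and 48 h (red), with bars at the group means (n = 3). Col3a1, Cdh11 and Crispld2 are higher and Egr2, Gbx2, Hoxb1 and Pou3f1 lower in every 48 h array, Postn is spread widely at 48 h, and the Mmp2 values overlap.

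Hindbrain factors split, with more falls than rises when the anterior Hox genes among them are counted. Of 32 measured hindbrain segmentation factors, which include 8 of the anterior Hox genes, 11 fell (34.4%) and 6 rose (18.8%), against 14.5% and 7.59% of all genes, and 15 were not called, with a median of -0.11 that was -0.043 without array 36 h C and -0.059 without array 48 h A. Most of the 11 falls were anterior Hox genes, which are counted again below. No anterior Hox gene rose (0 of 10), so the 6 rises lie outside them. Among the factors other than anterior Hox genes, falls did not outnumber rises. With the covariate 9 of the 32 were called lower and 1 higher. With the letters pooled, 5 were called lower and 1 higher.

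Egr2 (also named Krox20), the zinc finger factor that specifies rhombomeres 3 and 5, had the largest fall of the list. It read 9.00, 9.28 and 8.82 at 36 h and 7.16, 6.72 and 7.10 at 48 h, with a wide gap between the groups. The change was -2.04 ± 0.17, a 4.10-fold fall (limma adjusted p = 1.8e-08), and it was -2.27 with the covariate. Its mean was 8.04 in arrays D to F at 24 h and 8.32 at 60 h, so the 48 h arrays formed a trough. Egr2 is also an immediate early gene, switched on within minutes by growth factor signals, and its promoter is shown with those genes further on. Gbx2, which sets the anterior border of the hindbrain, read 10.70, 10.69 and 10.65 at 36 h and 9.40, 9.42 and 9.32 at 48 h. It fell by 1.30 ± 0.11 on the log2 scale, 2.46-fold (limma adjusted p = 9.6e-09), and stayed down, at 9.45 at 60 h and 8.85 at 72 h. Fgf15, a growth factor gene of the neural tube, fell from 9.21, 9.04 and 9.41 to 8.14, 8.21 and 8.31, a change of -1.0 ± 0.13 that was -1.39 with the covariate.

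Of 10 measured anterior Hox genes, those of paralogue groups 1 to 4, 8 fell and 0 rose, with a median of -0.67, and in the same 8 every 48 h array was below every 36 h array (19.8% of all genes). With the letters pooled, 3 were called lower, and the calls of Hoxa3, Hoxa4 and Hoxb2 were among those lost. Hoxb1, the rhombomere 4 gene and a direct target of retinoic acid receptors, read 12.96, 12.94 and 12.81 at 36 h and 11.92, 12.01 and 11.80 at 48 h. It fell by 0.99 ± 0.12 on the log2 scale (limma adjusted p = 3.2e-06), and the mean was 11.79 at 60 h and 11.06 at 72 h. Hoxb4 fell as far, from 10.09, 10.19 and 9.78 to 9.03, 8.96 and 9.09, a change of -1.0 ± 0.11, but its mean was back at 9.59 at 60 h. Hoxa4, Hoxa3, Hoxb2 and Hoxc4 changed by -0.85, -0.83, -0.77 and -0.57. Hoxb3 and Hoxd1 changed by -0.38 and -0.53, and each call was lost without 36 h A (-0.38 and -0.44), without 36 h B (-0.36 and -0.56) or without 48 h C (-0.24 and -0.34). Hoxa2 (-0.13) and Hoxd3 (0.19) were not called. In 6 of the 10 genes all 48 h arrays lay below all arrays of both 36 h and 60 h, against 3.67% of all genes.

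Counts differed between the 4 Hox clusters. Of 9 measured Hoxb genes 7 fell and 0 rose, with a median of -0.97, and 3 of 9 Hoxa genes fell. Of 7 measured Hoxc genes 4 rose and 1 fell, with a median of 0.47. Of 8 Hoxd genes 1 rose and 1 fell (12.5% each), near the shares of all genes (7.59% and 14.5%). Hoxb6 fell most, from 11.40, 11.69 and 11.37 to 10.32, 10.18 and 10.32, a change of -1.21 ± 0.14 (limma adjusted p = 1.2e-06). Hoxb9, a more posterior gene of the cluster, read 10.03, 10.44 and 10.31 at 36 h and 9.24, 9.29 and 9.29 at 48 h, a change of -0.98 ± 0.15. Hoxb5 changed by -0.97 ± 0.13. The calls of Hoxb5, Hoxb6 and Hoxb9 were lost with the letters pooled. Hoxc9, by contrast, read 9.01, 8.90 and 8.81 at 36 h and 9.69, 9.75 and 9.70 at 48 h. It rose by 0.81 ± 0.12 (limma adjusted p = 3.2e-05), kept 0.75 with the covariate, and followed a climb from 7.61 at 24 h (D to F) to 10.42 at 60 h. Hoxc10 rose by 1.02 ± 0.22, from 7.63, 7.82 and 7.85 to 8.66, 9.11 and 8.60, with 0.82 left under the covariate and no call. Hoxb9 and Hoxc9 are paralogues of the same group, and their groups of arrays moved in opposite directions with no overlap in either.

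**Figure D5:**
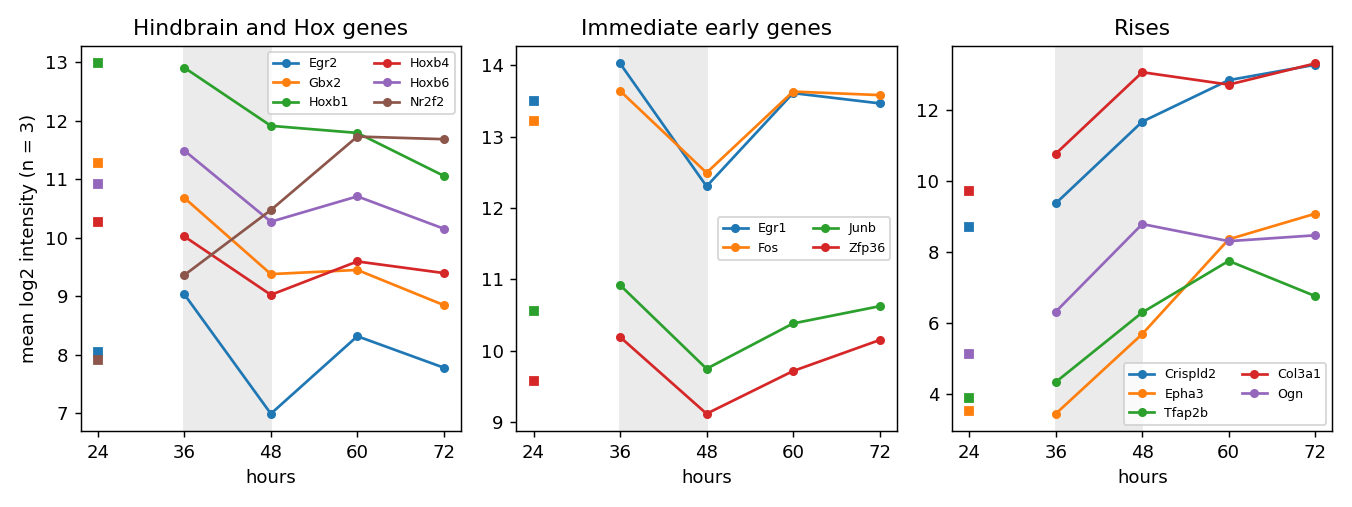
Mean log2 intensity (y axis, n = 3 arrays) at 36, 48, 60 and 72 h (x axis), with arrays D to F at 24 h as squares, for hindbrain and Hox genes (left), immediate early genes (middle) and genes that rose (right). The grey band is the interval compared. Egr2, Hoxb4 and the immediate early genes are lower at 48 h than at 36 h and 60 h, Gbx2 and Hoxb1 stay low, and Crispld2, Epha3 and Nr2f2 go on rising to 60 h.

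Among the hindbrain factors that rose was Nr2f2 (COUP-TFII), an orphan nuclear receptor that retinoic acid induces. It read 9.32, 9.55 and 9.21 at 36 h and 10.34, 10.54 and 10.54 at 48 h and rose by 1.11 ± 0.13 (limma adjusted p = 8.7e-07), with 1.02 left under the covariate. Its relative Nr2f1 rose by 0.66 ± 0.16 but kept 0.05. Zfp703, a zinc finger repressor, fell by 0.62 ± 0.09 on the log2 scale. Of the TALE cofactors, homeodomain proteins that bind DNA with Hox proteins, 2 of 8 measured fell and 0 rose. Pknox2 fell by 0.67 ± 0.12, and Meis1 and Meis2 (-0.14 and -0.26) were not called. The calls of Nr2f1, Zfp703 and Pknox2 were lost with the letters pooled.

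Genes of the retinoic acid pathway split. Of 22 measured 5 rose (22.7%) and 7 fell (31.8%), against 7.59% and 14.5% of all genes, with a median of -0.06. Crabp2, which carries retinoic acid to its receptors, read 13.80, 13.81 and 13.51 at 36 h and 13.11, 13.04 and 12.96 at 48 h and fell by 0.67 ± 0.14 on the log2 scale (limma adjusted p = 0.00079). The reductase Dhrs3 fell by 0.36 ± 0.07, and Stra8, a classical target in germ cells, by 0.55 ± 0.14. Rdh10, which makes retinaldehyde, rose by 0.69 ± 0.12, and Cyp26b1, which degrades retinoic acid, by 0.66 ± 0.13. Aldh1a1 went from 4.88, 4.52 and 4.52, values close to the floor, to 5.94, 5.52 and 5.28. Rarb, a direct target of the receptors, had a change of 0.26 ± 0.12 and was not called. With the arrays from 36 h to 72 h alone, with the replicate letter as a block, or with the letters pooled, 3 genes of the list were called lower. The call of Stra8 was lost in the first 2 of these fits and that of Dhrs3 in the last.

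Immediate early genes, whose transcripts appear within minutes of a stimulus and decay as fast, fell together. Of 19 measured 12 fell and 1 rose, with a median of -0.74, and with the covariate 10 were called lower and 0 higher. In 12 of the 19 every 48 h array lay below every array of both 36 h and 60 h, against 3.67% of all genes. Egr1 read 13.98, 14.09 and 14.01 at 36 h and 12.34, 12.20 and 12.37 at 48 h, a change of -1.72 ± 0.14 or 3.30-fold (limma adjusted p = 1.4e-08). Its mean was 13.50 at 24 h (D to F) and 13.61 at 60 h. Fos, a subunit of the AP-1 factor, read 13.69, 13.84 and 13.39 at 36 h and 12.50, 12.27 and 12.71 at 48 h, and its mean at 60 h was 13.63, the level of 36 h (13.64). Junb, another AP-1 subunit, changed by -1.17 ± 0.10, and Zfp36, which speeds the decay of messages, by -1.07 ± 0.14. Their means at 60 h were 10.38 and 9.72, above 48 h (9.75 and 9.12) and below 36 h (10.92 and 10.19). The slopes of these 5 genes, Egr2 included, on the fibroblast level lay between 0.01 and 0.16.

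The CArG box, the binding motif of serum response factor, is known from promoters of both immediate early and contractile genes, which moved in opposite directions here. It was searched on both strands from 250 bases before to 50 bases after each start site listed by RefSeq (GRCm38.p6). The box was present in 1.63% of 32851 promoters and in 1.81% of the genes they belong to. Among the immediate early genes that fell, 10 of 12 had a listed promoter and 2 of these 10 (20.0%) held the box. It lay in 5 of 14 promoters (35.7%), and 4 of these 5 were start sites of Egr2. Among the contractile genes that rose, 14 of 16 had a listed promoter and 2 of these 14 (14.3%) held the box. It lay in 2 of 18 promoters (11.1%). The promoters of Egr2 and Zfp36, which fell, and of Myl9 and Cnn2 (0.83 ± 0.09), which rose, are printed to show these matches, with the box in capitals. Cnn2, a calponin, is named for its match and not for its change. Members of these lists that did not move this way were not counted apart. The shares therefore describe the lists and do not bear on the changes. A match shows the letters in this window and not a bound site.
Egr2, chr10:67537316-67537615, + strand: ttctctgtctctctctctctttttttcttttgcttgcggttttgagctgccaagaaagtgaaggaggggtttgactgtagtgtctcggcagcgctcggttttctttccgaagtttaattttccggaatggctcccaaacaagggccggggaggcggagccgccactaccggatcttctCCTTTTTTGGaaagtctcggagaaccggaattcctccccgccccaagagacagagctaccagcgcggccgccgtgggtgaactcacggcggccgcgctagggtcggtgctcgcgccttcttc
Zfp36, chr7:28379179-28379478, - strand: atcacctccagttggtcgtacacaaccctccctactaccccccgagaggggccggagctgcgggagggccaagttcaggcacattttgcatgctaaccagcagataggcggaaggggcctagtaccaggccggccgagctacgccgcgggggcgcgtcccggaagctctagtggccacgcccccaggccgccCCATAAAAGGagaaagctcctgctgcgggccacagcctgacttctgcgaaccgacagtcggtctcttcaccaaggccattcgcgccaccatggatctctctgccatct
Myl9, chr2:156775214-156775513, + strand: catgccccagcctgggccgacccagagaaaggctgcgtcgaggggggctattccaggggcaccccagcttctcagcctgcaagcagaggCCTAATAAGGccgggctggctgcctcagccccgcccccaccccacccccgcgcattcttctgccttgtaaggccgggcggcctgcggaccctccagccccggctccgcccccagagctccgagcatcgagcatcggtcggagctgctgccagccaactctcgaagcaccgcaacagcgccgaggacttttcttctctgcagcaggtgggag
Cnn2, chr10:79988350-79988649, + strand: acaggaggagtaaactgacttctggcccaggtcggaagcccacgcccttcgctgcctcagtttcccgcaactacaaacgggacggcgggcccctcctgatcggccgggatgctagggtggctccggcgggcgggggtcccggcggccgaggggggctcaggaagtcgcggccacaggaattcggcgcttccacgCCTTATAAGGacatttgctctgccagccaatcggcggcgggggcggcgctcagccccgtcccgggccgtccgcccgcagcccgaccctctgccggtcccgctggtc

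The box began 72 bases before the start in Egr2, 58 in Zfp36, 161 in Myl9 and 56 in Cnn2. Of 5 start sites listed for Egr2, 4 held it.

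Genes of glycolysis and of the response to low oxygen also fell. Of 18 measured 15 fell and 0 rose, with a median of -0.33, but with the covariate 0 were called in either direction. Egln3, an oxygen-sensing prolyl hydroxylase, read 9.95, 10.37 and 9.25 at 36 h and 8.22, 8.56 and 8.14 at 48 h, a change of -1.55 ± 0.24 (limma adjusted p = 4.1e-05). Bnip3, which directs the removal of mitochondria, read 12.53, 12.60 and 11.43 at 36 h and 11.10, 11.19 and 10.72 at 48 h, a change of -1.18 ± 0.28. In both genes array 36 h C was the lowest of its group and the nearest to the 48 h arrays. The glycolytic kinase gene Pfkp (-0.95) and Pdk1 (-0.94), which holds pyruvate back from the mitochondria, were also lowest in 36 h C within that group. So was Ndufa4l2, which is not on the list, a target of the low-oxygen factors and the gene with the largest fall, with 10.20, 10.22 and 9.06 at 36 h and 7.76, 7.84 and 7.53 at 48 h. It changed by -2.12 ± 0.27 and by -1.56 with the covariate. The brain aldolase Aldoc, also not on the list, changed by -1.62 ± 0.28, but by -0.23 and with no call when probe sets of types that can cross-hybridise were left out. Array 36 h C also had the highest fibroblast level of its group, and the slopes of Egln3, Bnip3 and Ndufa4l2 on that level were -0.41, -0.40 and -0.38. With fewer arrays in the model, those of 36 h and 48 h or those from 36 h to 72 h, 7 of the 18 were called lower. With the letters pooled 8 were, and the calls of Egln3, Bnip3 and Pfkp were lost.

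The core motif of the low-oxygen factors, ACGTG, was searched on both strands in the same windows. It was found in 19.6% of all promoters and in 21.8% of all genes with a promoter. Among the list members that fell it was in 11 of 19 promoters (57.9%) or 10 of 14 genes (71.4%). The list was made of glycolysis and low-oxygen genes, and members that did not fall were not counted apart. The shares therefore describe the list and do not bear on the fall. The promoters of the list members with the largest changes, Egln3 and Bnip3, are printed with the motif in capitals, and in Bnip3 the letters read as ACGTG on both strands.
Egln3, chr12:54203825-54204124, - strand: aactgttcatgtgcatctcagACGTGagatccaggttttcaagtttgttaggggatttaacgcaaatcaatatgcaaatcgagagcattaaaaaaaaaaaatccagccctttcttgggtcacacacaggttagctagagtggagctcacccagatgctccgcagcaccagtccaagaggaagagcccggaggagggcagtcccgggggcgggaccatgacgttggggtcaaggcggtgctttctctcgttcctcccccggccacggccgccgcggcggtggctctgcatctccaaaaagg
Bnip3, chr7:138909457-138909756, - strand: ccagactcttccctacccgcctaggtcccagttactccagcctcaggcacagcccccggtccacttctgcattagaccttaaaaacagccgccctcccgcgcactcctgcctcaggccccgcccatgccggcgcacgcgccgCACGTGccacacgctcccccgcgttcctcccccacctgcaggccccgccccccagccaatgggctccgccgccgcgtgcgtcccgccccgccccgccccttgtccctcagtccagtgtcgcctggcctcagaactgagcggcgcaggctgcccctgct

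Genes of cholesterol synthesis and its control fell, most of them by small amounts that were even between arrays. Of 16 measured 14 fell and 0 rose, with a median of -0.37, and 6 were called lower with the covariate. Insig1, the sterol sensor's partner and itself a target of the sterol factors, read 10.73, 10.92 and 10.77 at 36 h and 9.66, 9.78 and 9.57 at 48 h, a change of -1.14 ± 0.10 (limma adjusted p = 1.4e-08). Dhcr7 and Lss, enzymes of the late steps, changed by -0.60 ± 0.07 and -0.54 ± 0.06. With the letters pooled 8 of the 16 were called lower. Genes of DNA replication and mitosis moved little, with a median of -0.08. Of 27 measured 0 were called higher and 4 lower (14.8%), near the 14.5% of all genes called lower. Without array 48 h A or 48 h C 1 was called lower, and without array 36 h B 2 were.

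Several factors of the epiblast and of the early neural plate fell. Pou3f1 (Oct6), a factor of the late epiblast and the neural plate, read 9.77, 9.80 and 9.54 at 36 h and 8.11, 8.08 and 7.61 at 48 h, a change of -1.77 ± 0.11 or 3.41-fold (limma adjusted p = 2.3e-10). It was -1.62 with the covariate, and the mean stayed low at 60 h (7.26). Of 16 measured formative epiblast genes 6 fell and 3 rose (median -0.23), against 14.5% and 7.59% of all genes. Of 30 core and naive pluripotency genes 10 fell (33.3%) and 6 rose (20.0%), with a median of -0.11. With the covariate 1 of these 30 was called lower and 5 higher (median 0.018), and with the letters pooled 6 lower and 1 higher. Tdgf1, a co-receptor of Nodal, changed by -0.87 ± 0.12 and its antagonist Lefty1 by -0.76 ± 0.17. The call of Lefty1 was lost with the arrays from 36 h to 72 h alone. Of the stem cell markers chosen for the comparison, Nanog (0.14) and Zfp42 (0.11) were not called, and Pou5f1 and Esrrb are not given here. Without array 48 h A 6 of the 30 pluripotency genes were called lower, with a median of -0.039, and without array 36 h A 3 were called higher.

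Neural genes changed in both directions. Of 30 measured neural progenitor factors 3 rose and 6 fell, and of 38 neuronal differentiation genes 2 rose and 8 fell, with medians of 0.05 and -0.02. These shares (10.0% and 20.0%, 5.26% and 21.1%) lie near those of all genes, 7.59% and 14.5%. With the covariate 1 progenitor factor was called higher and 1 lower. Zic1, a factor of the dorsal neural tube and its border, read 7.67, 7.71 and 7.74 at 36 h and 9.02, 9.10 and 8.89 at 48 h and rose by 1.30 ± 0.18 (limma adjusted p = 1.1e-05), with 0.96 left under the covariate. Sox3 and Lhx2, factors of the neural plate and of the forebrain and eye, changed by -0.77 ± 0.12 and -0.81 ± 0.16. Mnx1, a factor of motor neurons, changed by -0.87 ± 0.21, and the neuronal filament gene Ina by -0.79 ± 0.15. With the letters pooled 3 of the 30 and 4 of the 38 were called lower, and the call of Sox3 was lost. The early neuronal markers Tubb3 (-0.03), Dcx (0.22) and Stmn2 (-0.20) were not called.

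Signalling genes changed with them, and the shares of all genes to set beside the counts below were 7.59% higher and 14.5% lower. Of 29 measured Wnt pathway genes 15 rose and 3 fell (median 0.32), and 6 were called higher with the covariate and 7 with the letters pooled. Wnt5a, a ligand of mesenchyme and the tail bud, rose by 1.95 ± 0.29, with 0.62 left and no call under the covariate. Lgr5, a receptor for R-spondins, rose from 5.73, 5.40 and 5.12 to 6.38, 6.78 and 6.97 by 1.29 ± 0.16, with 1.43 left, and its ligand gene Rspo3 by 1.07 ± 0.19, with 1.07 left. Of 28 genes of bone morphogenetic and transforming growth factor beta signalling 12 rose and 5 fell. Inhba, the activin A subunit, read 7.63, 8.00 and 8.33 at 36 h and 9.83, 9.85 and 11.51 at 48 h, where array C stood apart. It rose by 2.41 ± 0.36, with 0.86 left and no call, while Tgfb2 rose by 1.84 ± 0.17 and kept 1.28. Id1, a target of bone morphogenetic proteins, changed by -0.74 ± 0.10. Of 12 measured hedgehog pathway genes 4 rose and 3 fell (median 0.02), with 0 called higher with the letters pooled and 2 without array 36 h B or 48 h A. The target genes Ptch1 and Gli1, which report its activity, fell: Ptch1 read 12.75, 12.68 and 12.66 at 36 h and 11.65, 11.67 and 11.53 at 48 h, a change of -1.08 ± 0.09 (limma adjusted p = 1.6e-08), and Gli1 changed by -0.80 ± 0.08.

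Markers of other cell types were set beside these changes. Of 23 measured genes of basement membrane and parietal endoderm 14 rose and 0 fell (median 0.46), with Col4a1 and Col4a2, chains of type IV collagen, higher by 0.75 ± 0.16 and 0.86 ± 0.19. With the covariate 3 of the 23 were called higher, and the 2 collagen chains kept 0.24 and 0.20, neither called. With the 36 h and 48 h arrays alone 8 were called higher and the call of Col4a1 was lost. Of 29 measured endoderm factors 2 rose (6.90%) and 3 fell (10.3%), with a median of 0.00. Both shares lie below those of all genes (7.59% and 14.5%). Gata4 (-0.08), Gata6 (0.41), Sox7 (0.15) and Dab2 (0.11) were not called, and Sox17 rose by 0.68 ± 0.13, which was not called with the letters pooled. Of 20 blood and endothelial markers 2 rose (10.0%) and 1 fell (5.0%), against 7.59% and 14.5% of all genes. That fall was Lmo2, a cofactor of blood formation, from 8.70, 8.97 and 9.04 to 7.34, 7.57 and 7.43, a change of -1.46 ± 0.12, while the leukocyte marker Ptprc stayed below 4.78 in all 6 arrays and Pecam1 (0.08) was not called. The part of these cell types in the matrix changes was not tested.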

How the data were processed

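RNA of 30 samples was measured on Affymetrix mouse arrays, and the 3 arrays each of 36 h and 48 h were compared. The deposited values are log2 intensities, and the authors' normalization steps are not given in the sources used here, beyond limma 3.8.3, named in the submitters' processing notes. Of 45101 probe sets, 64 controls, 9160 with no gene symbol in GEO's platform annotation and 932 with several were left out, and of the 34945 with 1 symbol the brightest per gene was kept (18193 genes).

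A linear model of all 30 arrays in 10 groups was fitted with limma 3.58.1 in R 4.3.3 and the contrast of 48 h minus 36 h taken, two-sided, with Benjamini-Hochberg adjustment. No filter or further normalization was applied. Precision is limited by the 3 arrays of a group. The fit was tested on simulated data. No 2 arrays of a group held identical values.

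Deviations of arrays from their group means correlated over genes at 0.18 (A), 0.15 (B) and 0.16 (C) between arrays of the same letter. For other letters the values were -0.25 to 0.14, with the highest, for 36 h A and 48 h B, close to that of B. Deviations within a group cancel out, so these values are not independent. A fit with the letter as a block was an alternative. Named genes are the 12 largest rises and 12 largest falls of called genes with no overlap between groups, up to 5 members of each of 35 gene lists, and members of the hindbrain, Hox, TALE, retinoic acid, collagen, matrix and fibroblast lists. Some cell type markers of the design and genes said to be named for another reason were added. The other markers of the design are not printed. Comparison, lists and rules were chosen with earlier results of these data known.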

Additional observations from a re-analysis of the deposited data

How the results depend on the processing

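The direction of the named changes held under most of 12 alternatives and 6 fits that left out 1 array, while the number of calls differed between fits. Against 1380 higher and 2635 lower, the letters pooled into 8 time groups gave 712 and 1109, the 36 h and 48 h arrays alone 697 and 1256, and the arrays from 36 h to 72 h alone 761 and 1479. The replicate block gave 1016 and 1755, and 11 of 156 named calls were lost with it. With the letters pooled 46 of the 156 were lost, with the arrays from 36 h to 72 h alone 25, and with the 36 h and 48 h arrays alone 17. In at least 1 of the fits that left out an array, 24 were lost. Leaving out 1 array gave 943 to 1352 higher and 1710 to 2717 lower, with 115 to 234 rises and 42 to 70 falls of at least 1 log2, the lowest count of lower calls without 36 h B and of large rises without 48 h C. The fibroblast level as a covariate gave 242 and 460, with 54 rises and 59 falls of at least 1 log2, and ended 74 of the 156 named calls. It turned 13 named changes: Lox (-0.084), Actg2 (-0.32), Col1a1 (-0.60), Col1a2 (-0.74), Col5a2 (-0.70), Col6a1 (-0.13), Col6a2 (-0.27), Postn (-1.13), Thy1 (-0.15), Twist2 (-0.54), Ddr2 (-0.080), Thbd (-0.18) and En1 (-0.16). These 13 include genes that define the level, such as Col1a1 and Thy1, whose changes in that fit cancel out by construction. Without probe set types that can cross-hybridise, Ncam1 turned to -0.10. The causes of these differences were not tested. The level itself differed by 1.44 as a mean and 1.38 as a median of the 19 genes. Genes whose 36 h or 48 h mean lay under 4.78 are close to the floor of the array.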

Other observations

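Some of the largest changes lay outside the themes above. Gata3, a factor of trophoblast, surface ectoderm and the inner ear, read 6.71, 6.61 and 6.79 at 36 h and 8.01, 8.35 and 8.03 at 48 h and rose by 1.43 ± 0.13 (limma adjusted p = 4.2e-08), with 1.59 left under the fibroblast covariate and a mean of 9.03 at 72 h. Of 17 measured trophoblast and surface epithelium genes 4 rose (23.5%) and 0 fell, against 7.59% and 14.5% of all genes. Of the 17, 2 were called higher without array 48 h B, and 1 with the letters pooled or with the arrays from 36 h to 72 h alone. Olr1, the receptor for oxidised low-density lipoprotein, went from 4.10, 3.53 and 4.45, close to the floor of the array, to 6.28, 6.26 and 6.61. Cdkn2b, an inhibitor of the cyclin D kinases, rose from 8.48, 8.63 and 8.64 to 10.03, 9.80 and 10.23, a change of 1.44 ± 0.11 that was 1.02 with the covariate. Cdkn1a (p21), which p53 induces, rose by 0.78 ± 0.12, with 0.22 left and no call.

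Imprinted genes moved both ways, with 4 of 17 higher (23.5%) and 3 lower (17.6%), against 7.59% and 14.5% of all genes. With the letters pooled 1 was called higher and 2 lower. Igf2, a fetal growth factor expressed from the paternal copy, rose from 12.19, 12.04 and 11.85 to 13.08, 13.33 and 12.91, a change of 1.08 ± 0.11 whose call was lost with the letters pooled. Phlda2, expressed from the maternal copy, read 10.44, 10.26 and 10.12 at 36 h and 9.13, 9.34 and 8.82 at 48 h, a change of -1.18 ± 0.14. Both are known regulators of placental growth, and the groups did not overlap in either.

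Among the falls, Csn3, kappa casein, read 11.61, 11.71 and 11.70 at 36 h and 10.27, 10.25 and 10.06 at 48 h and went on to a mean of 8.67 at 72 h. Trh, the thyrotropin-releasing hormone gene, changed by -1.39 ± 0.10 and Tcf15, a factor of somites and of stem cells leaving the naive state, by -0.93 ± 0.07. Shisa3, an inhibitor of Wnt and fibroblast growth factor receptors, changed by -1.51 ± 0.15, and its mean of 9.13 at 72 h was closer to that of 36 h (9.63) than to that of 48 h (8.11). All 4 changes were called with the covariate too. Of 15 measured class I and interferon genes 5 fell (33.3%) and 3 rose (20.0%), against 14.5% and 7.59% of all genes. The change of H2-K1 was -0.77 ± 0.12. With the covariate 2 of the 15 were called higher and 0 lower, and the median went from -0.12 to 0.013. H2-K1 and its relatives share long stretches of sequence, so which of them a probe set reads is uncertain.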
